A study of Mus musculus with 16 samples.

Results

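The genes described here are 63 genes of motile cilia and of the ciliated ependymal cells, out of 18168 genes that the arrays measured with a single gene symbol. A gene was taken by its symbol in the annotation of the array, where it begins with Cfap, Dnah, Dnai, Drc, Rsph or Tekt, or is Foxj1, Ak7, Tmem212, Meig1, Hydin, Dnajb13, Ccdc39, Ccdc40, Ccdc153, Spag6, Spag8, Spag16 or Spag17. The rule used symbols alone, but it was proposed with earlier results of these data known. The 63 genes rested on 97 probe sets, with 39 genes on 1 probe set and 24 on several. No filter on low values was applied, so all 63 genes are counted throughout.

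Motile cilia are beating projections built on a ring of paired microtubules with a further pair at the centre. Dynein arms, which are rows of motor proteins on the outer pairs, make them slide against each other, and radial spokes and the central pair time the stroke. In the brain such cilia are carried by ependymal cells, which line the ventricles and move cerebrospinal fluid. Foxj1 is the transcription factor that switches on the motile cilium programme, together with factors of the RFX family, and many of the genes below cause primary ciliary dyskinesia in humans when mutated.

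Total RNA from the hippocampus and the cerebellum of mice overexpressing a mutant form of Twinkle, the helicase of mitochondrial DNA, and of wild-type mice was hybridised to Affymetrix arrays. There were 16 arrays in 4 groups of 4, 1 group for each genotype and region. These mice serve as a model of progressive external ophthalmoplegia, and the labels name neither the mutation nor the promoter of the transgene. Replicates 1 to 4 came from mice aged 26, 24, 21 and 23 months among wild types and 24, 24, 21 and 21 months among mutants, in both regions. The replicates are called biological, but it is not said which hippocampus and cerebellum belonged to 1 animal, and p-values reflect only how far these samples spread. The description of the hippocampus samples names cerebellum, whereas title, source and tissue all name hippocampus, which was followed.

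Every value below is a log2 difference from the median array of the same region, as deposited, so no expression level is left and neither genes nor regions can be compared in level. Nor can the tissue of an array be checked by the level of its markers. Twnk, the gene of Twinkle, differed by 0.06 (SE 0.05) between genotypes in each region. Whether its probe set detects the transgene is unknown here, so it checks no label. Several hippocampus arrays stood apart in markers of neighbouring tissue. The mean of 10 cerebellar granule neuron genes was 2.47 on wild-type replicate 1 and 0.81 on mutant replicate 1, with 0.22 as the highest of the other 6 arrays. The mean of 21 choroid plexus genes was 1.44 on mutant replicate 4, 0.55 on wild-type replicate 1 and no higher than 0.24 on the others. The mean of 18 genes of meninges and fibroblasts was 1.03 on mutant replicate 1 and at most 0.10 elsewhere. In bulk tissue, a change in the number of ciliated cells and a change in RNA per cell cannot be told apart.

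In the hippocampus most motile cilium genes lay higher in mutants than in wild types, and none passed the test. The mean was higher in mutants for 54 of the 63 genes, or 85.7%, against 58.9% of all genes. The median difference, mutant minus wild type, was 0.105 over the 63 genes and 0.02 over all genes, and single genes ranged from -0.09 to 1.06. At an adjusted p under 0.05 (Benjamini-Hochberg, over all 18168 genes), limma called 0 of the 63 genes and 0% of all genes. At an unadjusted p under 0.05 there were 21 of the 63 genes, all of them higher, or 33.3%, against 5.28% of all genes for the higher direction and 2.75% for the lower. The mutant and wild-type arrays did not overlap for 12 of the 63 genes, again all higher in mutants, against 3.24% of all genes, and for 0 in the lower direction, against 1.52%.

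**Figure D1:**
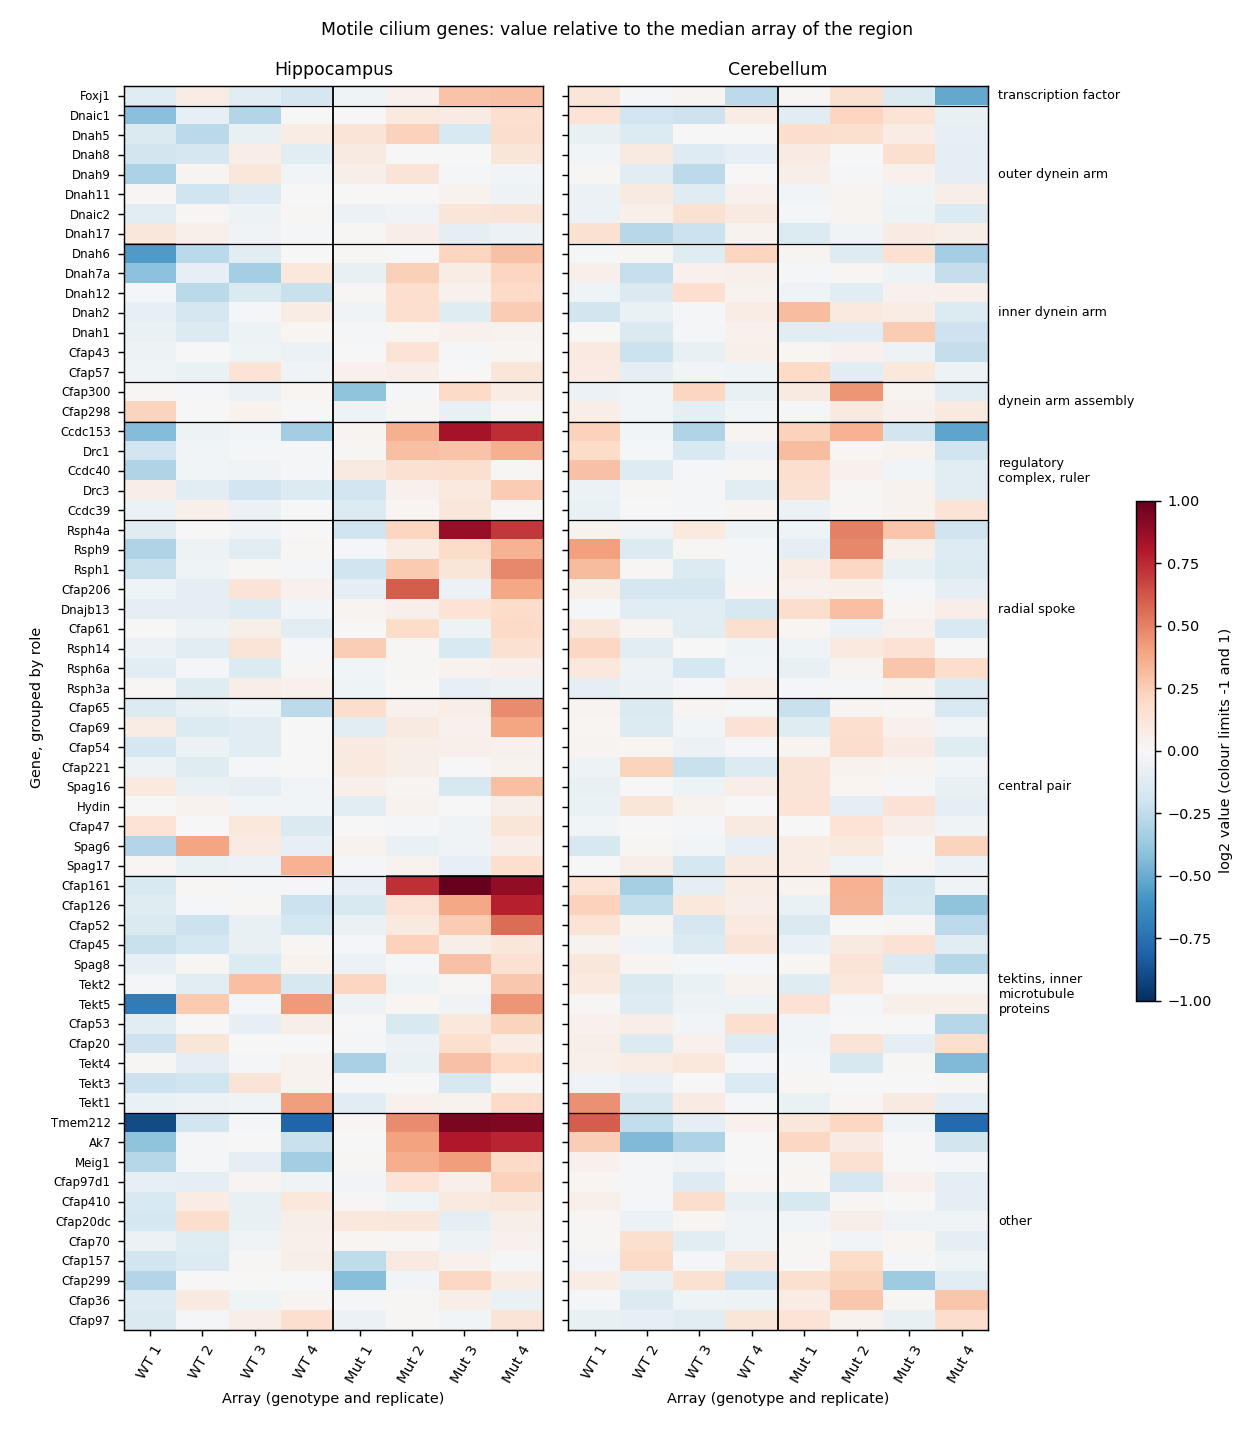
Each row is a motile cilium gene, grouped by role, each column is an array (WT, wild type; Mut, mutant), and colour gives the log2 value relative to the median array of the region, with colours capped at -1 and 1. Warm colours gather on mutant hippocampus replicates 2, 3 and 4 for Tmem212, Ak7, Cfap161 and Ccdc153, and the cerebellum shows no such column by genotype.

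The shift was uneven over the arrays. The median over the 63 genes was -0.01, 0.05, 0.05 and 0.17 on mutant hippocampus replicates 1 to 4 and -0.12, -0.05, -0.04 and -0.003 on the wild types. Averaged over arrays, the medians were 0.06 ± 0.07 for mutants and -0.05 ± 0.05 for wild types (SD, n = 4), and mutant replicate 1 lay among the wild types. Mutant replicate 4 was the highest of the 8 hippocampus arrays for 24 genes, or 38.1%, against 18.8% of all genes. Mutant replicate 3 was highest for 15, or 23.8%, against 9.48% of all genes. At the low end, wild-type replicate 1 was the lowest array for 24 genes, or 38.1%, against 25.7% of all genes.

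Tmem212, which encodes a membrane protein and is used as a marker of ependymal cells, had the widest difference of the 63 genes. Its values on hippocampus arrays were 0.01, 0.47, 0.94 and 0.93 in mutants and -0.90, -0.19, -0.01 and -0.80 in wild types. All 4 mutants lay above all 4 wild types, although mutant replicate 1 and wild-type replicate 3 were nearly equal. The difference was 1.06 (SE 0.26, limma adjusted p = 0.37), and it ranged from 0.92 to 1.25 when single arrays were left out. Meig1, named for its part in male germ cells, where mice need it to form the sperm tail, had the smallest p of the 63. Its mutants stood at 0.01, 0.36, 0.42 and 0.20 and its wild types at -0.29, -0.01, -0.09 and -0.34. Again the groups did not overlap, with a difference of 0.43 (SE 0.09, adjusted p = 0.16). That SE draws on the spread in both regions, and with the 8 hippocampus arrays alone the limma adjusted p of Meig1 was 0.644.

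Ak7, an adenylate kinase attached to the axoneme, the microtubule core of the cilium, reached 0.40, 0.80 and 0.77 on mutant replicates 2, 3 and 4. Mutant replicate 1 stood at -0.004, within the wild types at -0.40, -0.008, 0.004 and -0.23. The difference was 0.65 (SE 0.17, adjusted p = 0.43). Cfap161, which binds inside the microtubules of the axoneme, showed the same split, with -0.08, 0.73, 1.01 and 0.89 in mutants and -0.15, 0.01, -0.01 and -0.02 in wild types. Its 3 high mutants lay well above every wild type and mutant replicate 1 lay among them. The difference was 0.68 (SE 0.18, adjusted p = 0.43). Without mutant replicate 1 it was 0.92 with a limma adjusted p of 0.022, and no other of the 18168 genes was called in that fit. This was the 1 call that any of the 63 genes reached when single arrays were left out.

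Ccdc153, the subunit of the dynein regulatory complex that is also called Drc12 and another widely used ependymal marker, stood at 0.03, 0.35, 0.83 and 0.74 in mutants and -0.43, -0.05, -0.03 and -0.34 in wild types. No arrays overlapped between genotypes, and the difference was 0.70 (SE 0.19, adjusted p = 0.43). These genes share an order of arrays, with mutant replicates 3 and 4 at the top for Tmem212, Ak7, Cfap161 and Ccdc153 and replicate 2 next, while Meig1 was lower on replicate 4 than on replicates 2 and 3.

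**Figure D2:**
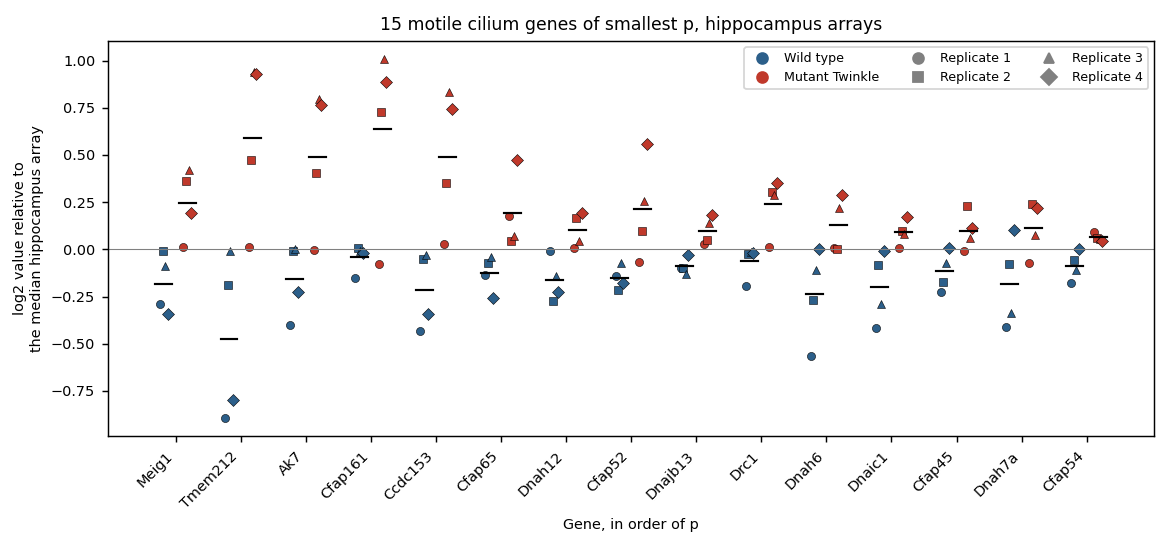
Points give the log2 value of each hippocampus array, relative to the median array, for the 15 motile cilium genes of smallest p, with blue for wild type, red for mutant, a symbol per replicate number and a black line at each group mean. Mutant points reach 1.01 for Cfap161 and 0.94 for Tmem212, and mutant replicate 1 lies near 0 for both.

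Promoter sequences are shown for 5 of the 15 genes of smallest p to let the letters of RFX and forkhead motifs be set beside the values. The 5 were chosen after their motifs were seen. Of those 15 genes 13 had a window, and 8 of these, among them Meig1, Tmem212, Dnah12, Cfap52 and Dnajb13, held none of the motifs. RefSeq windows of 300 bases on build GRCm38.p6, from 250 bases before to 50 after the annotated start, were given for 54 of the 63 genes. Tmem212 lies at chr3:27896319-27896618 on the minus strand, Ak7 at chr12:105705732-105706031 on the plus strand, Cfap161 at chr7:83794790-83795089 on the minus strand, Ccdc153 at chr9:44240427-44240726 on the plus strand and Drc1 at chr5:30281143-30281442 on the plus strand. Capitals mark GTTGCC, the core of RFX motifs, or its reverse complement GGCAAC, and the forkhead motif TGTTTAC, which was searched on both strands too.
Tmem212: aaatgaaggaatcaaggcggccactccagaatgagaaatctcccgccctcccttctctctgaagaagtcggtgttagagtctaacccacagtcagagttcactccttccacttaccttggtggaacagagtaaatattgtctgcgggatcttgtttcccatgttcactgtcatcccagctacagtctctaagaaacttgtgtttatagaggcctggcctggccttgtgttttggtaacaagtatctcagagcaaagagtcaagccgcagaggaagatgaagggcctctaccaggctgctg
Ak7: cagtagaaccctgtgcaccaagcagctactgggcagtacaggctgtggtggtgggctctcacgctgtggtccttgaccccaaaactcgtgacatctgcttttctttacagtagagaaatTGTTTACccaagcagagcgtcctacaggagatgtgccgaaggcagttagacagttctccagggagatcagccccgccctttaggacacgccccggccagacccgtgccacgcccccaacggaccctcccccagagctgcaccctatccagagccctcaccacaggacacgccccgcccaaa
Cfap161: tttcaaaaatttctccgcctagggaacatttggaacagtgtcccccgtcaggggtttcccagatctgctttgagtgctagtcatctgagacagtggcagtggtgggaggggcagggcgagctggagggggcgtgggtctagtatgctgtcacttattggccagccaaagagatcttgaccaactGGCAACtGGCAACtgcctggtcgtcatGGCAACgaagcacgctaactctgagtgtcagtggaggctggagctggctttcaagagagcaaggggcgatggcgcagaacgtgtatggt
Ccdc153: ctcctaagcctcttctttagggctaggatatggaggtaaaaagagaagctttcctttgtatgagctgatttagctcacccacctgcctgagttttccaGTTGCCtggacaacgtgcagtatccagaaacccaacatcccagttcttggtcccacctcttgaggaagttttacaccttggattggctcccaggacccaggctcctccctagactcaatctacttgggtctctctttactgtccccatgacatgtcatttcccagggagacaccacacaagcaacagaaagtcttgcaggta
Drc1: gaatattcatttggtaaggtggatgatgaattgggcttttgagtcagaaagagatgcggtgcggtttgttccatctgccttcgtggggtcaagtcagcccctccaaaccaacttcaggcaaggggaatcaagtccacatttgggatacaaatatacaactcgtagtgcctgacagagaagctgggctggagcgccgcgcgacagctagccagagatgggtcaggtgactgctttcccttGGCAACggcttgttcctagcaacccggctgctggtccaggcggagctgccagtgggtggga
The Cfap161 window held GGCAAC at 66, 59 and 39 bases before the start, the Drc1 window at 11 bases before it, and the Ccdc153 window held GTTGCC at 152 bases before it. The Ak7 window held TGTTTAC at 131 bases before the start, and the Tmem212 window held neither motif. Over the 54 genes, GTTGCC on either strand was in the windows of 16, or 29.6%, against 14.1% of the 27025 genes with a window. TGTTTAC was in those of 5, or 9.26%, against 4.05%. An X-box, read as GTTNCC and GGNAAC with 0 to 3 bases between, was in 2, or 3.7%, against 0.936%, and these were Cfap298 and Cfap20dc. A match describes letters only, and GTTGCC can lie inside an X-box.

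Foxj1, the master regulator of motile cilia, did not stand apart between genotypes. Its hippocampus values were -0.04, 0.04, 0.29 and 0.29 in mutants and -0.12, 0.07, -0.10 and -0.17 in wild types. Mutant replicates 3 and 4 were the highest, and the groups overlapped. The difference was 0.23 (SE 0.12, adjusted p = 0.64).

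By role, the counts below stand against 58.9% of all genes above 0 and 5.28% higher at an unadjusted p under 0.05. Of 7 outer dynein arm genes, 6 lay above 0 in mutant minus wild type, with a median of 0.08, and 3 had an unadjusted p under 0.05. Dnaic1, an intermediate chain that anchors the motors, stood at 0.01, 0.10, 0.08 and 0.17 in mutants and -0.42, -0.08, -0.29 and -0.007 in wild types. These did not overlap, and both probe sets of Dnaic1 gave 0.29 (SE 0.10 for their mean, adjusted p = 0.51). Dnah5, an outer arm heavy chain commonly mutated in primary ciliary dyskinesia, differed by 0.20 (SE 0.09, adjusted p = 0.60) with overlapping groups, since mutant replicate 3 lay at -0.15. Dnah11, the other classical disease gene among the heavy chains, lay at 0.08 (SE 0.06), and at 0.0361 without wild-type replicate 2.

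All 7 inner dynein arm genes lay above 0, from 0.06 to 0.37, and 3 had an unadjusted p under 0.05. Dnah12, a heavy chain, stood at 0.01, 0.17, 0.04 and 0.19 in mutants and -0.01, -0.27, -0.14 and -0.22 in wild types. The groups were apart by a small step, and the difference was 0.26 (SE 0.07, adjusted p = 0.43). Dnah6 differed by 0.37 (SE 0.12, adjusted p = 0.49), with wild-type replicate 1 lowest at -0.57 and wild-type replicate 4 level with mutant replicate 2. Dnah7a differed by 0.30 (SE 0.11, adjusted p = 0.51) with overlapping groups. Its near-identical neighbours Dnah7b and Dnah7c could share its probes, so the value is uncertain.

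The dynein regulatory complex, which links neighbouring microtubule pairs, and the ruler that spaces the arms had all 5 genes above 0 and a median of 0.197. Drc1, the subunit that anchors the complex, stood at 0.01, 0.30, 0.29 and 0.35 in mutants and -0.19, -0.03, -0.01 and -0.02 in wild types. The arrays did not overlap, and wild-type replicate 1 lay far from the other wild types. The difference was 0.30 (SE 0.10, adjusted p = 0.49). The ruler proteins Ccdc39 and Ccdc40 bind each other, yet their values differed. Ccdc40 lay at 0.20 (SE 0.09, adjusted p = 0.60) without overlap of the groups and at 0.129 without wild-type replicate 1, and Ccdc39 at 0.02 (SE 0.06), the mean of 3 probe sets from -0.10 to 0.11.

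Of 9 radial spoke genes, 8 lay above 0 with a median of 0.188. Rsph4a, a protein of the spoke head, stood at -0.20, 0.21, 0.87 and 0.71 in mutants and -0.12, -0.01, -0.04 and 0.01 in wild types. Mutant replicates 2, 3 and 4 lay above all wild types and replicate 1 below them, with a difference of 0.44 (SE 0.18, adjusted p = 0.58). Its partners in the spoke head, Rsph9 and Rsph1, lay at 0.26 (SE 0.13, adjusted p = 0.61) and 0.23 (SE 0.12, adjusted p = 0.63), both with overlapping groups. Rsph4a was at 0.281 without mutant replicate 3, and Rsph1 at 0.129 without mutant replicate 4 and 0.355 without mutant replicate 1. Dnajb13, a chaperone-like protein of the spoke neck, was the spoke gene whose groups stood apart, with 0.03, 0.05, 0.14 and 0.18 in mutants and -0.10, -0.10, -0.13 and -0.03 in wild types. Its difference was 0.19 (SE 0.06, adjusted p = 0.49).

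The central pair gave smaller differences, with 6 of 9 genes above 0 and a median of 0.07. Cfap65, whose loss in mice disturbs the sperm tail, lay highest of them at 0.32 (SE 0.09, adjusted p = 0.43), with 0.18, 0.04, 0.07 and 0.47 in mutants and -0.14, -0.07, -0.04 and -0.26 in wild types. No arrays overlapped. Cfap54 stood apart as well at 0.15 (SE 0.06, adjusted p = 0.56), as did Cfap221 at 0.10 (SE 0.07, adjusted p = 0.76). The value of Cfap54 is the mean of 0.057 and 0.242 on its probe sets. The large scaffold Hydin, whose mutation gives hydrocephalus in mice, differed by less than 0.01 (SE 0.06), with -0.10, 0.03, -0.005 and 0.06 in mutants against -0.004, 0.04, -0.03 and -0.03 in wild types. Spag6, Spag16 and Spag17, which are bound to each other at the central pair, lay at -0.02 (SE 0.10), 0.07 (SE 0.08) and -0.04 (SE 0.09). Each of these 4 crossed 0 when single arrays were left out, and Spag6 shares most of its sequence with the copy Spag6l.

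Tektins and other proteins inside the microtubules had 11 of 12 genes above 0 with a median of 0.105. Cfap52 was the 1 gene of them whose groups did not overlap, at -0.07, 0.10, 0.26 and 0.56 in mutants and -0.14, -0.22, -0.07 and -0.18 in wild types. Mutant replicate 1 and wild-type replicate 3 were nearly level, and the difference was 0.36 (SE 0.11, adjusted p = 0.43), the mean of 0.20 and 0.53 on its probe sets. Cfap45, its neighbour in the microtubule wall, lay at 0.21 (SE 0.08, adjusted p = 0.51) with overlap. Tekt1, a tektin filament protein, lay at -0.03 (SE 0.12), with wild-type replicate 4 at 0.42 above every mutant. The 2 genes of dynein arm assembly, Cfap298 and Cfap300, lay at -0.09 and -0.03, and the 4 probe sets of Cfap298 ranged from -0.221 to 0.065.

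**Figure D3:**
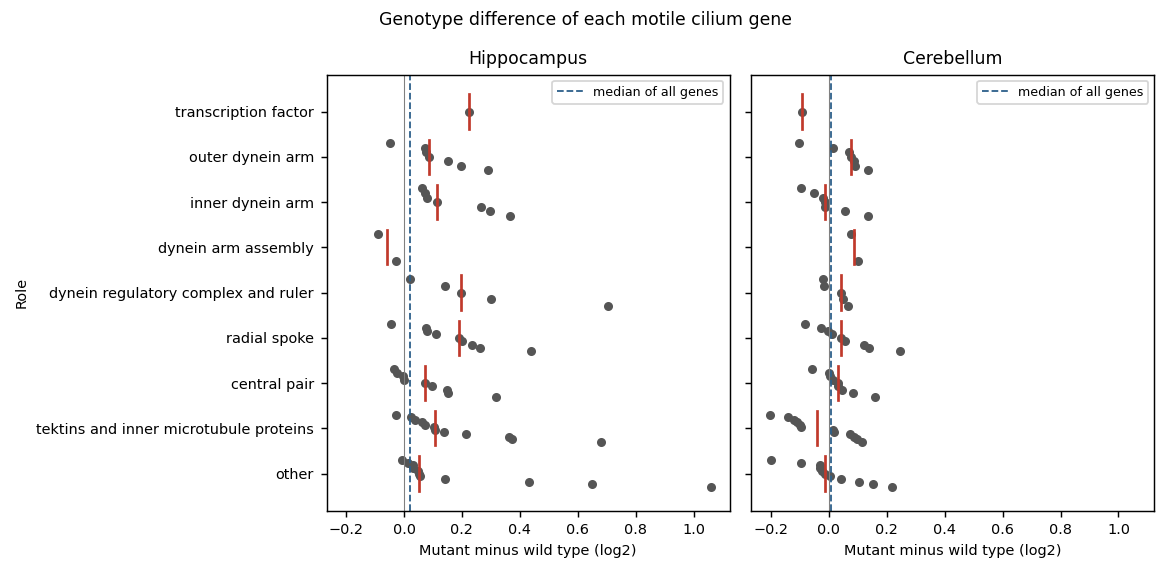
Each point is the difference of a motile cilium gene, mutant minus wild type in log2 units, by role in the hippocampus and the cerebellum, with a red bar at the median of the role and a dashed line at the median of all genes. In the hippocampus all roles but dynein arm assembly have a median above the 0.02 of all genes, and the widest point is Tmem212 at 1.06.

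Lists of related genes outside the 63 were set beside them, and their counts are read against the 58.9% of all genes above 0 and the 5.28% higher and 2.75% lower at an unadjusted p under 0.05. Of 16 other ependymal markers, all 16 lay above 0 in the hippocampus with a median of 0.27 and 8 at an unadjusted p under 0.05. Odf3b differed by 0.27 (SE 0.06, adjusted p = 0.23) and Cdhr4, a cadherin-related protein, by 0.40 (SE 0.11, adjusted p = 0.43). The gene 1700012B09Rik lay at 0.30 (SE 0.08, adjusted p = 0.43). Of 45 other motile cilium genes, 41 lay above 0 with a median of 0.115, and 14 had an unadjusted p under 0.05, all higher. Among them were the radial spoke gene Lrrc23 at 0.34, the sperm and cilium gene Enkur at 0.56 and Wdr63 at 0.24. Of 46 genes of primary cilia and intraflagellar transport, which most brain cells carry, 37 lay above 0 with a median of 0.07. At an unadjusted p under 0.05, 3 were higher and 1 lower. Sstr3 lay at -0.18, Tctn1 at 0.14 and Ift46 at 0.16. The 12 regulators of multiciliation split 7 above and 5 below 0, with Deup1 at 0.23, Myb at 0.18 and Rfx2 at 0.11. The 14 dynein assembly factors split 9 to 5, with Zmynd10 at 0.36, Pih1d1 at 0.13 and Spag1 at -0.36. limma called 0 genes of these lists.

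limma called 0 of the marker genes of neighbouring tissue, whose values are set beside these. In the hippocampus, 20 of 21 choroid plexus genes lay above 0 with a median of 0.20, and 1 was higher at an unadjusted p under 0.05. Otx2 lay at 0.62 (SE 0.34), Igfbp2 at 0.48 (SE 0.30) and Msx1 at 0.15 (SE 0.06). Of the genes of meninges and fibroblasts, 18 of 18 lay above 0 with a median of 0.31, and 5 were higher by that p. Dcn lay at 0.63 (SE 0.11, limma adjusted p = 0.083), Lum at 0.65 (SE 0.21) and Fbln1 at 0.31 (SE 0.10). Of the cerebellar granule neuron genes, 9 of 10 lay below 0 with a median of -0.30, and 0 had an unadjusted p under 0.05. En2 lay at -0.55, Neurod1 at -0.43 and Grin2c at -0.18. The mean of the other ependymal markers was 0.00, 0.06, 0.31 and 0.45 in mutants and -0.09, -0.07, -0.03 and -0.19 in wild types. That of the choroid plexus genes was -0.05, -0.20, 0.07 and 1.44 in mutants and 0.55, 0.24, -0.23 and -0.28 in wild types. Astrocyte and radial glia genes split 7 above and 6 below 0 with a median of 0.01. Of these, Cd24a lay at 0.60 (SE 0.20, adjusted p = 0.49), Fabp7 at 0.24 (SE 0.17) and S100b at -0.09 (SE 0.06).

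Without mutant replicate 4 and wild-type replicate 1, the arrays with the highest choroid plexus means, 43 of the 63 genes lay above 0, against 53.9% of all genes, with a median of 0.07. There, 9 were higher, against 3.42% of all genes, and 1 lower, against 2.38%, at an unadjusted p under 0.05, and 12 did not overlap between 3 and 3 arrays, against 6.9% of all genes. Without both arrays with raised granule neuron genes, mutant and wild-type replicate 1, 51 lay above 0, against 57.3%, with a median of 0.109. At an unadjusted p under 0.05 there were 21, all higher, against 4.09% of all genes. There, 22 did not overlap, against 8.06% of all genes, and the smallest adjusted p was 0.0697. Without mutant replicate 1, the array with raised meningeal genes, 58 of the 63 lay above 0 with a median of 0.138.

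**Figure D4:**
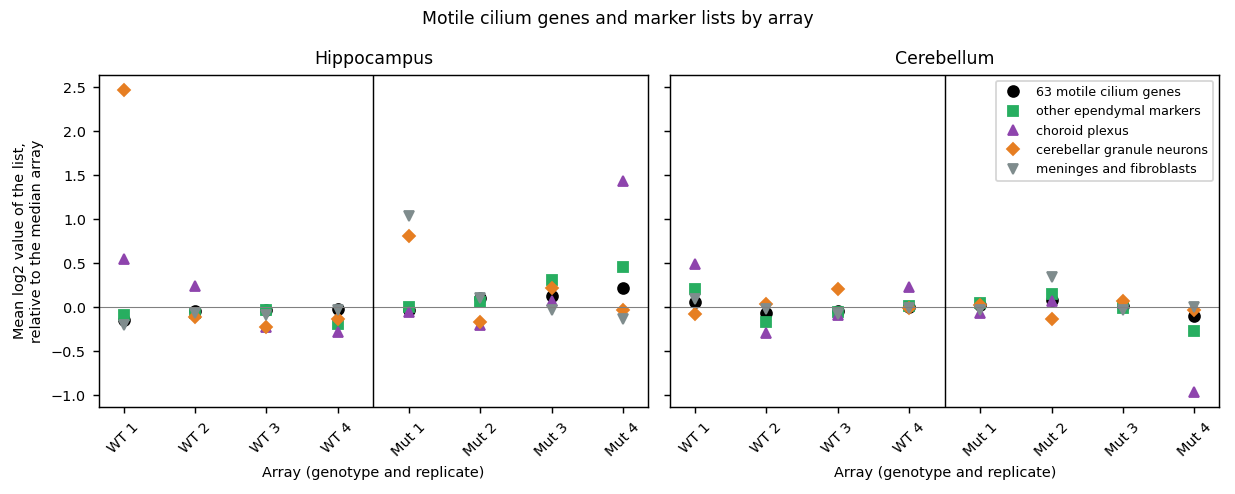
Symbols give the mean log2 value of the motile cilium genes and of 4 marker lists on each array, relative to the median array of the region. In the hippocampus, the choroid plexus mean of mutant replicate 4 stands at 1.44 and the granule neuron mean of wild-type replicate 1 at 2.47, while the motile cilium genes stay between -0.15 and 0.22.

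In the cerebellum the 63 genes did not lean to either genotype to a like degree. There, 38 lay above 0, or 60.3%, against 53.6% of all genes, with a median of 0.015 against 0.007. The median was 0.002 without mutant replicate 2 and 0.05 without wild-type replicate 1. limma called 0 of the 63 genes and 0% of all genes. At an unadjusted p under 0.05 there were 2, both higher, against 3.15% of all genes, and 0 were lower, against 2.24%. The groups did not overlap for 3 genes, Dnajb13, Cfap36 and Tekt3, all higher, against 1.44% of all genes, and for 0 in the lower direction, against 1.02%. The median over the 63 genes was 0.01, 0.04, 0.02 and -0.10 in mutants and 0.03, -0.05, -0.03 and -0.002 in wild types, and mutant replicate 4 was the lowest array for 22 genes, or 34.9%, against 15.9% of all genes. On that array the choroid plexus mean was -0.96, and its part in these values was not tested.

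Dnajb13 was the 1 gene with an unadjusted p under 0.05 for genotype in both regions. In the cerebellum it stood at 0.18, 0.30, 0.02 and 0.07 in mutants and -0.02, -0.11, -0.12 and -0.16 in wild types. All mutants lay above all wild types, with a difference of 0.24 (SE 0.06, adjusted p = 0.88). Cfap36, known as a partner of the small GTPase Arl3, stood at 0.07, 0.27, 0.01 and 0.28 in mutants and -0.01, -0.13, -0.04 and -0.05 in wild types, a difference of 0.22 (SE 0.07, adjusted p = 0.88). Its hippocampus difference was 0.01. Tmem212 spread widely within each genotype in the cerebellum, from -0.78 to 0.21 in mutants and from -0.24 to 0.60 in wild types, with a difference of -0.20 (SE 0.26). Ak7 lay at 0.15, Ccdc153 at -0.02, Foxj1 at -0.09, the spoke gene Rsph6a at 0.14 and Tekt4 at -0.20, with all groups overlapping. Spag6 lay at 0.16, Dnah5 at 0.14, Dnaic2 at -0.10 and Cfap53 at -0.14. Without mutant replicate 4, Tekt4 was at -0.106 and Cfap53 at -0.0724, and without mutant replicate 3 Rsph6a was at 0.0821.

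Whether the genotype difference depended on the region was tested as the hippocampus difference minus the cerebellum difference. This was above 0 for 45 of the 63 genes, against 54.9% of all genes, with a median of 0.09 against 0.014. limma called 0 of the 63 and 0% of all genes. At an unadjusted p under 0.05 there were 9 higher, against 3.07% of all genes, and 1 lower, against 2.28%, which was Cfap36 at -0.21 (SE 0.09). Tmem212 differed by 1.26 (SE 0.37), Cfap52 by 0.49 (SE 0.15) and Dnah6 by 0.46 (SE 0.17). Meig1 was at 0.39 (SE 0.12), Cfap65 at 0.38 (SE 0.12) and Dnah12 at 0.28 (SE 0.10), and all of these had an adjusted p of 0.87, so no gene was shown to respond differently in the regions. The count of 9 ranged from 7 to 19 with single arrays left out. It was 19 without mutant hippocampus replicate 1, against 3.03% of all genes, and 14 without mutant cerebellum replicate 2, against 2.82%. It was 7 without wild-type hippocampus replicate 1, against 2.99%, mutant hippocampus replicate 4, against 2.52%, or mutant cerebellum replicate 4, against 2.01%. The median was 0.05 without mutant cerebellum replicate 4. By sign, 31 genes were higher in mutants in both regions and 2 in neither, 23 were higher in the hippocampus and lower in the cerebellum, and 7 the reverse. This split was not counted over all genes, so it is not read as a trait of the 63. In the difference between regions, the choroid plexus genes were above 0 for 21 of 21 with a median of 0.54. Without the hippocampus arrays of highest choroid plexus means, 39 of the 63 genes lay above 0, against 51.6% of all genes, with a median of 0.07. At an unadjusted p under 0.05, 5 were then higher, against 2.66% of all genes, and 3 lower, against 2.61%. Without the hippocampus arrays with raised granule neuron genes, 46 lay above 0, against 53.4%, and 15 were higher, against 2.86%, and 2 lower, against 2.16%.

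Age was compared between mice of 24 months or more, which are replicates 1 and 2 of every group, and mice of 23 months or less, which are replicates 3 and 4, with genotype and region in the fit. In the hippocampus 54 of the 63 genes lay below 0 in older minus younger mice, and 9 lay above, or 14.3%, against 45.3% of all genes. The median was -0.08 against -0.01. limma called 0 of the 63 and 0% of all genes. At an unadjusted p under 0.05 there were 7, all lower, against 3.16% of all genes for the lower direction and 3.39% for the higher. This count was 1 without mutant replicate 1, against 2.35% of all genes, and 1 without mutant replicate 4, against 3.02%. It was 4 without wild-type replicate 1, against 1.52%, and 14 without wild-type replicate 2, against 5.3%. Among the 6 genes of smallest p, Rsph4a lay at -0.42 (SE 0.16), Ccdc153 at -0.33 (SE 0.14), Dnah6 at -0.31 (SE 0.10), Cfap299 at -0.26 (SE 0.11), Tekt4 at -0.25 (SE 0.10) and Cfap52 at -0.22 (SE 0.09). Without mutant replicate 1, Rsph4a lay at -0.26, Ccdc153 at -0.208, Cfap299 at -0.154 and Tekt4 at -0.154, and without mutant replicate 4 Cfap52 lay at -0.128. The age classes of Rsph4a overlapped, since its high values, 0.87 and 0.71, came from the younger mutants and the younger wild types stood at -0.04 and 0.01. The arrays with raised granule neuron genes are both in the older class. Without them 18 of the 63 genes lay above 0, against 48.2% of all genes, and the median was -0.05. There were then 0 lower at an unadjusted p under 0.05, against 1.13% of all genes, and 1 higher, against 1.94%. Without the arrays with the highest choroid plexus means 20 lay above 0, against 50.2%, with a median of -0.05. There, 2 were lower, against 1.21%, and 2 higher, against 2.14%. Over all arrays, age was also fitted in months as a slope per 3 months. By that slope 9 were lower at an unadjusted p under 0.05, against 6.31% of all genes, and 0 higher, against 5.63%. limma then called 0 of the 63 and 20 of all 18168 genes, and the smallest adjusted p of the 63 was 0.176.

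In the cerebellum the age difference had the opposite sign for most genes, with 48 of 63 above 0, or 76.2%, against 52.6% of all genes, and a median of 0.04 against 0.01. limma called 0 of the 63 and 0% of all genes. There were 7 genes higher at an unadjusted p under 0.05, against 2.39% of all genes, and 1 lower, against 1.82%, which was Dnah12. The count of higher genes ranged from 3 to 12 with single arrays left out. It was 3 without mutant replicate 2, against 2.27% of all genes, and 3 without mutant replicate 4, against 1.87%. It was 4 without wild-type replicate 1, against 1.82%, and 12 without wild-type replicate 2, against 3.12%. The median was 0.015 without mutant replicate 4 and 0.07 without wild-type replicate 4. Ccdc153 stood at 0.23, 0.35, 0.23 and -0.03 in older mice and at -0.19, -0.53, -0.30 and 0.03 in younger mice, mutants first. The classes overlapped by 1 array on each side, and the difference was 0.44 (SE 0.14). Foxj1 lay at 0.29 (SE 0.10), Drc1 at 0.22 (SE 0.08), Spag8 at 0.18 (SE 0.07), Cfap221 at 0.17 (SE 0.06) and Dnajb13 at 0.13 (SE 0.05). Foxj1 was at 0.189 without mutant replicate 4, and Cfap221 at 0.099 without wild-type replicate 2. The adjusted p was 0.999 for all of them in the fit by age class. Choroid plexus genes were above 0 for 21 of 21 in the same comparison, with a median of 0.22, and their part was not tested. With age in months as a slope per 3 months, 10 of the 63 genes were higher at an unadjusted p under 0.05, against 4.94% of all genes. By the same slope 1 was lower, against 4.55%. limma then called 0 of the 63 and 0 of all genes, and the smallest adjusted p of the 63 was 0.264. The difference of the age effect between regions was not tested.

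Since ages were not matched between genotypes, the genotype comparisons were repeated with age in months as a covariate. In the hippocampus the median was 0.09, with 48 of the 63 genes above 0, against 57.5% of all genes, and 17 higher at an unadjusted p under 0.05, against 5.1%. In the cerebellum it was 0.04, with 42 above 0, against 55.4%, and 2 higher, against 5.15%. The smallest limma adjusted p of the 63 there was 0.322. For the difference between regions the median was 0.064, with 43 above 0, against 52.2%. There, 7 were higher, against 3.78%, and 1 lower, against 3.02%. Within mice of 21 to 23 months the hippocampus median was 0.104 with 51 genes above 0, against 54.6% of all genes. Within mice of 24 to 26 months it was 0.107 with 52 above 0, against 59.5%, and 0 of the 63 genes were called in either class. Single genes moved more than this median between the classes. Rsph4a lay at 0.803 in the younger mice and 0.0726 in the older, and Foxj1 at 0.426 and 0.025. Cfap161 lay at 0.962 and 0.396, Ak7 at 0.893 and 0.403, Ccdc153 at 0.975 and 0.434 and Tmem212 at 1.34 and 0.783. Other genes were larger in the older mice. Dnah5 lay at 0.0109 in the younger and 0.386 in the older, and Ccdc40 at 0.112 and 0.283. Cfap45 lay at 0.118 and 0.31, and Dnah6 at 0.307 and 0.423. Each class holds 2 mutant and 2 wild-type arrays, and the difference between classes was not tested.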

How the data were processed

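Gene expression was measured with biotin-labelled Affymetrix arrays in 16 samples. The authors deposited 1 value per array for 45101 probe sets, on a log scale that was read as log2. The submitters' processing notes name GCOS 4.0. How the values were normalized and the log base are not stated in the sources used here. For all 44904 probe sets analysed, the median over the 8 arrays of a region lay within 1e-05 of 0, so the values are relative to the median array. If the base were e, differences would have to be multiplied by 1.44. The number of arrays limits the precision.

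Left out were 64 control probe sets and 133 with an empty value. Of the rest, 34843 had 1 symbol in the platform annotation, 931 had several and 9130 had none, and probe sets of 1 symbol were averaged per gene. All 63 symbols were found in a RefSeq gene table. A linear model with 1 coefficient per group was fitted over the 16 arrays with limma 3.58.1 (R 4.3.3), leaving 12 residual degrees of freedom, or 10 in the age fit. The spread of each gene was estimated over both regions together, so cerebellum arrays enter the SE and p of hippocampus differences. Tests were two-sided. The fit was tested on simulated data. Python 3.11.15, pandas 2.3.3 and matplotlib 3.10.9 were used for counts and figures.

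The genes, lists and tests were chosen with earlier results of these data known. Genes were named by rule: the 15 of smallest p in the hippocampus, 8 in the cerebellum, 6 for the difference between regions and for each age difference, 18 well-known genes in any case, and 3 of each list. Outside this rule, Cfap298, Cfap300, Cfap20dc, Tekt3, Cfap221 in the hippocampus, and Dnah12 in the age comparison, were named after their values were seen. Alternatives were single probe sets, other scaling, array weights, a robust variance model, blocks, age terms, the 8 arrays of a region alone and arrays left out. Same-numbered mutant and wild-type arrays deviated from their group means with correlations of -0.19 to 0.23 in a region. The highest, 0.23, was that of replicate 1 in the hippocampus. Such correlations cannot settle whether replicate numbers paired samples, so the main fit was unpaired.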

Additional observations from a re-analysis of the deposited data

Results flagged for a closer look

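In 76 groups of 4 arrays, formed by the named genes, 4 groups had 1 array set far from the other 3 (Dixon's criterion), where chance gives about 1 in 20, or 3.8. Drc1, of the dynein regulatory complex, stood at -0.193 on wild-type hippocampus replicate 1, and Ccdc40, of the axonemal ruler, at -0.298 on the same array. This array had the highest granule neuron mean, 2.47, and came from the oldest mouse, at 26 months. Tekt1, a tektin, stood at 0.417 on wild-type hippocampus replicate 4. Cfap53, a protein inside the microtubules, stood at -0.286 on mutant cerebellum replicate 4, the array with the lowest choroid plexus mean, -0.96. What set these values apart was not tested.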

How the results depend on the processing

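The count of called motile cilium genes was 0 in all comparisons and under all alternatives run except 1. Without mutant hippocampus replicate 1 it was 1, Cfap161, the only call among all 18168 genes in that fit. The count thus ranged from 0 to 1 over single arrays left out. The median hippocampus difference stayed between 0.0704 and 0.139 under all of them. The count of 21 higher at an unadjusted p under 0.05 moved more with single arrays left out. It was 14 without wild-type replicate 1, against 4.38% of all genes, and 16 without mutant replicate 4, against 3.86%. Without mutant replicate 1 it was 23, against 5.01%. With quantile normalization 49 of the 63 genes lay above 0, against 50.4% of all genes. At an unadjusted p under 0.05, 18 were then higher, against 3.64% of all genes, and 0 lower, against 3.94%. Whether replicate numbers paired samples is not known. With the replicate block, 0 genes were called for genotype in either region or for the difference between regions, and the smallest adjusted p of the 63 was 0.33 in the hippocampus. With the 8 hippocampus arrays alone, the smallest limma adjusted p of the 63 was 0.644. There, 19 were higher at an unadjusted p under 0.05, against 5.28% of all genes, and 0 lower, against 2.38%. No paired fit was possible for age because replicate numbers define the age class. No cerebellum array passed the choroid plexus limit of 0.5, so none was left out there, and the planned correlations of each gene with the others were not run.

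Some named genes changed sign, none of them past the threshold. In the hippocampus Hydin was at -0.0145 with quantile normalization, -0.0131 with arrays centred on the median, -0.0041 with age as a covariate and -0.0195 without the arrays of high choroid plexus means. In mice of 24 to 26 months, a split chosen after seeing the data like the exclusion of arrays by granule neuron genes, Hydin was at -0.0526, Spag17 at 0.0321, Ccdc39 at -0.052 and Tekt1 at 0.0274, and in the cerebellum Rsph6a at -0.0483 and Dnaic2 at 0.0099. In mice of 21 to 23 months, Spag6 was at 0.0165 in the hippocampus and Dnah5 at -0.0018 in the cerebellum. With single arrays left out, Hydin ranged from -0.0199 to 0.0329, Spag6 from -0.129 to 0.0984, Spag16 from -0.0097 to 0.144, Spag17 from -0.0819 to 0.0607, Ccdc39 from -0.0182 to 0.0655 and Tekt1 from -0.0764 to 0.0905. The cause was not tested.

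The arrays hold no absolute level, so genes near background could not be set aside. Of the 24 genes with several probe sets, 10 had them on both sides of 0 in the hippocampus, and this share was not counted over all genes.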
